A study of Homo sapiens with 4 samples.

Results

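The genes examined were the 10 that encode the checkpoint kinase CHK1, its adaptor claspin and the proteins that switch on the upstream kinase ATR, together with CHEK2, the gene of the related kinase CHK2. They were chosen by symbol (CHEK1, CHEK2, CLSPN, ATR, TOPBP1, RAD17, HUS1, ETAA1, TIMELESS and TIPIN), and all 10 were among the 17687 genes measured, each by 1 array feature. NB4-R4 cells, which derive from the promyelocytic leukaemia line NB4 and resist all-trans retinoic acid, were grown with MK-8776 (4 µM), an inhibitor of CHK1, on 2 arrays, or with the vehicle DMSO on 2 arrays, both for 96 h. All 4 arrays thus come from 1 resistant subclone. RNA was taken from live cells. The labels do not say how the replicate cultures were separated, so a p-value here speaks for the spread among these 4 samples only.

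When a replication fork stalls, single-stranded DNA coated by RPA recruits ATR. RAD17 loads the clamp formed by RAD9, RAD1 and HUS1, and the clamp brings in TOPBP1, which activates ATR. ETAA1 activates ATR by a separate route through RPA. Claspin, helped by the fork proteins TIMELESS and TIPIN, holds CHK1 where ATR can phosphorylate it, and active CHK1 then restrains the CDC25 phosphatases and so the entry into mitosis. CHK2 is activated mainly by ATM after double-strand breaks. The inhibitor acts on the CHK1 protein, whose activity was not measured here, and the question addressed is how the transcripts of the kinase and of its upstream apparatus stood after 96 h of treatment.

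After MK-8776 the transcript of the adaptor claspin was higher. CLSPN rose 2.06-fold, the only one of the 10 genes to pass the test. It did not pass with the replicate number as a block (adjusted p = 0.068, limma). CHEK1 had a log2 change of -0.81 that missed the threshold. ATR, ETAA1 and CHEK2 had changes of -0.65 to -0.78 that did not pass either. The loader and clamp genes RAD17 and HUS1, the ATR activator gene TOPBP1 and the fork gene TIPIN had changes between -0.22 and 0.21. Values are RMA expression on the log2 scale, and changes are MK-8776 minus DMSO, with adjusted p from limma over all 17687 genes and a threshold of 0.05. Of all genes, 3.69% passed in either direction and 1.66% as rises. The smallest log2 change that passed in any gene was 0.925 in size, larger than the changes of CHEK1, ATR, ETAA1 and CHEK2.

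The sequences just upstream of the CLSPN and CHEK1 transcription starts are given because these genes had the only call and the lowest change of the 10, in opposite directions. They are the 250 bases before the start in RefSeq (GRCh38.p14), 5′ to 3′ on the strand of the gene. Capitals mark the letters CCAAT or, on the other strand, ATTGG, the box bound by the factor NF-Y. The CLSPN window is chr1:35769979-35770228 on the minus strand, and the first of 3 listed CHEK1 windows is chr11:125625979-125626228 on the plus strand.
CLSPN promoter: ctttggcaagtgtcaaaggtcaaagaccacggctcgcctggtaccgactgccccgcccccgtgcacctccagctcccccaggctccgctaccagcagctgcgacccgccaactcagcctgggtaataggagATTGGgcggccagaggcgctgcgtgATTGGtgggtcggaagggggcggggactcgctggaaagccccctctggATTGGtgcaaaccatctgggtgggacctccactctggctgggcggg
CHEK1 promoter: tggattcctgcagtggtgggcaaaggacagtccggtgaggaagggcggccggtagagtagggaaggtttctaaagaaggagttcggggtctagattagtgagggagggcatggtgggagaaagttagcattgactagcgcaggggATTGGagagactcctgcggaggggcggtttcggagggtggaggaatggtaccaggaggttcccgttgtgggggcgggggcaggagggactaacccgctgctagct
The CLSPN window holds 3 CCAAT boxes, which begin 119, 94 and 46 bases before the start, and the CHEK1 window holds 1, which begins 105 bases before it. The second CHEK1 window holds 1 as well, and the third, like that of CLSPN, holds 3. A CCAAT box on either strand was found in 32.0% of 35116 windows of the same length over all genes. Of the 9 genes with a listed window, 6 held one in their first window, namely CHEK1, CHEK2, CLSPN, ETAA1, TIMELESS and TIPIN. HUS1 had no entry. The strict E2F letters TTTCCCGC, TTTCGCGC, TTTGCCGC and TTTGGCGC, searched on both strands, were in the first window of 0 of the 9 genes and in 2.79% of all windows. The letters TTTGAA of the cell cycle homology region (both strands) were in the first window of 0 of the 9 and in 13.3% of all. Over all listed windows, the E2F letters were found in 1 of the 9 genes, TIPIN, and TTTGAA in 1, RAD17, both in their second window. These matches describe letters in these windows, and factor binding was not measured.

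CLSPN encodes claspin (chromosome 1, 35720213 to 35769978, GRCh38). It measured 8.27 and 8.39 in the MK-8776 arrays, against 7.23 and 7.35 in the DMSO arrays. The groups lay far apart relative to the distance between replicates, with means of 8.33 ± 0.085 in MK-8776 and 7.29 ± 0.085 in DMSO (SD, n = 2 each). The log2 change was 1.04 (SE 0.20, 95% interval 0.57 to 1.51, adjusted p = 0.0338, limma). With the replicate number as a block the change was the same, but the call was lost (adjusted p = 0.068, limma). With 1 array left out the change stayed between 0.98 and 1.10, but the call was lost each time, with adjusted p (limma) of 0.247 and 0.159 when MK-8776 replicate 1 or replicate 2 was dropped, and of 0.257 and 0.383 when DMSO replicate 1 or replicate 2 was dropped. The whole fit gave 0 to 34 calls with 3 arrays, against 652 with 4.

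CHEK1, the gene of the inhibited kinase (chromosome 11, 125625136 to 125681124), measured 10.08 and 10.33 in the MK-8776 arrays and 10.90 and 11.13 in the DMSO arrays. Both treated arrays lay below both controls. The change was -0.81 (SE 0.22, 95% interval -1.31 to -0.31), which corresponds to 0.570 of the DMSO level, with adjusted p = 0.0883 in limma. It passed with a variance trend (0.0333), with a robust trend (0.0354) and among genes above the median level (0.0492), all at the same change. It did not pass with quantile normalization, median centring, a replicate block or all features tested (adjusted p of 0.0914, 0.101, 0.0993 and 0.101, limma). With 1 array left out the change lay between -0.935 and -0.685. Of all genes, 8.01% had a change of larger size. The gene ACRV1, which lies within the span of CHEK1, was near the lower quartile of all values (3.97), at 4.16 in MK-8776 and 3.93 in DMSO.

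Within each array, CLSPN minus CHEK1 was -1.81 and -1.94 in MK-8776, against -3.67 and -3.78 in DMSO. The features have their own probes, so only the shift between groups can be read, not the sign within an array. That shift was 1.85 on the log2 scale, with SDs of 0.092 and 0.078 within the groups (n = 2 each). It is given as a description, since the pair was chosen with these changes known, and the smallest p that an exact two-sided permutation test could give with 4 arrays is 0.333. The difference was 1.79 to 1.92 with each array left out in turn.

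**Figure D1:**
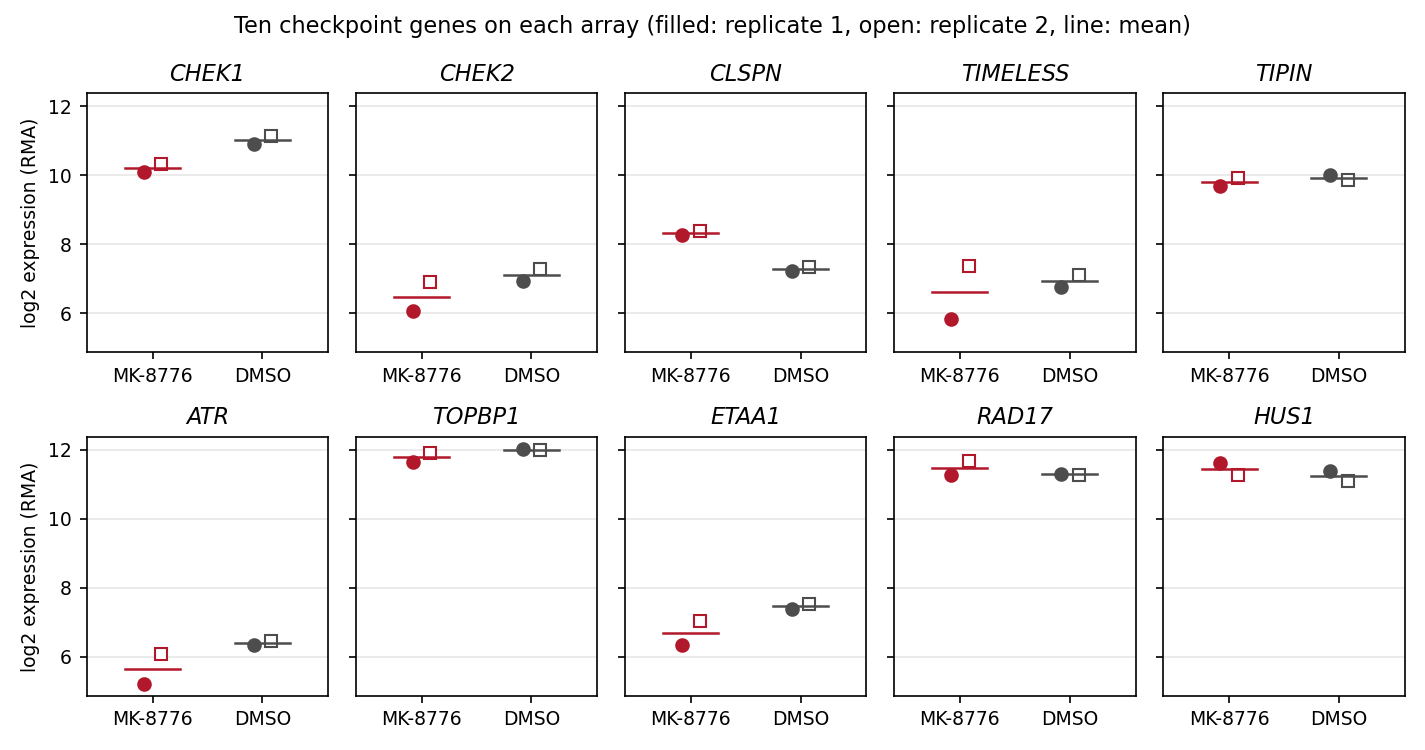
Log2 RMA expression of the 10 genes on each array, MK-8776 in red and DMSO in grey, with replicate 1 filled, replicate 2 open and the group mean as a line. Levels are to be compared within a panel, since each gene has its own probes. CLSPN is the only panel with clearly higher treated arrays (8.27 and 8.39 against 7.23 and 7.35), and TIMELESS has the widest treated pair (5.84 and 7.37).

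CHEK2 encodes CHK2, the kinase of the ATM branch (chromosome 22, 28687742 to 28741834). It measured 6.05 and 6.89 in the MK-8776 arrays and 6.94 and 7.29 in the DMSO arrays, so the groups were separated by only the narrow gap between MK-8776 replicate 2 and DMSO replicate 1. The change of -0.65 (SE 0.30) did not pass (adjusted p = 0.296, limma). Dropping MK-8776 replicate 1 gave -0.23, and dropping replicate 2 of that group gave -1.07. CHEK2, RAD17 and TIPIN have pseudogene copies elsewhere in the genome per the RefSeq gene table, so how much of their signals comes from the genes themselves is uncertain.

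ATR encodes the kinase that phosphorylates CHK1 (chromosome 3, 142449235 to 142578733). It measured 5.21 and 6.08 in the MK-8776 arrays and 6.33 and 6.45 in the DMSO arrays. Both treated arrays were lower, and they differed from each other by more than the nearer of them differed from the controls. The change was -0.75 (SE 0.29, adjusted p = 0.221, limma). It came to -0.31 when MK-8776 replicate 1 was dropped and to -1.18 when replicate 2 was dropped.

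Neither activator gene of ATR passed the test. ETAA1, whose protein activates ATR through RPA (chromosome 2, 67397333 to 67412089), measured 6.34 and 7.03 in the MK-8776 arrays and 7.39 and 7.53 in the DMSO arrays. Its groups did not overlap, and its change was -0.78 (SE 0.26, adjusted p = 0.160, limma). The change was -0.43 if MK-8776 replicate 1 was dropped and -1.12 if replicate 2 was dropped. TOPBP1, the activator that works with the clamp (chromosome 3, 133600238 to 133661941), measured 11.65 and 11.92 in MK-8776 and 12.03 and 11.98 in DMSO. The groups were just separated, and the change was -0.22 (95% interval -0.71 to 0.27, adjusted p = 0.650, limma), with -0.36 to -0.085 when 1 array was dropped. A test of the difference between ETAA1 and TOPBP1 was not made.

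RAD17, the gene of the clamp loader subunit (chromosome 5, 69369293 to 69414801), measured 11.27 and 11.68 in MK-8776 and 11.31 and 11.27 in DMSO. The groups overlapped, and the change of 0.19 had a 95% interval of -0.33 to 0.70 (adjusted p = 0.731, limma). HUS1, the gene of a clamp subunit (chromosome 7, 47963288 to 47979615), measured 11.62 and 11.28 in MK-8776 and 11.39 and 11.09 in DMSO. Its groups overlapped too, with a change of 0.21 and an interval of -0.32 to 0.74 (adjusted p = 0.695, limma). With 1 array dropped the changes ranged from -0.02 to 0.39 for RAD17 and from 0.04 to 0.38 for HUS1. For both genes the intervals leave out a halving or a doubling of the transcript.

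TIMELESS and TIPIN encode the partners of a complex that travels with the fork and binds claspin. TIMELESS (chromosome 12, 56416363 to 56449426) measured 5.84 and 7.37 in MK-8776 and 6.76 and 7.12 in DMSO. The treated arrays lay on either side of both controls, so the mean change of -0.34 (SE 0.43, adjusted p = 0.749, limma) describes neither, and it became 0.43 without MK-8776 replicate 1. TIPIN (chromosome 15, 66336191 to 66386717) measured 9.69 and 9.93 in MK-8776 and 10.01 and 9.85 in DMSO. These overlapped, and the change of -0.12 had an interval of -0.61 to 0.37 (adjusted p = 0.827, limma). The interval for TIMELESS, -1.33 to 0.66, is wide enough to include a halving.

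**Figure D2:**
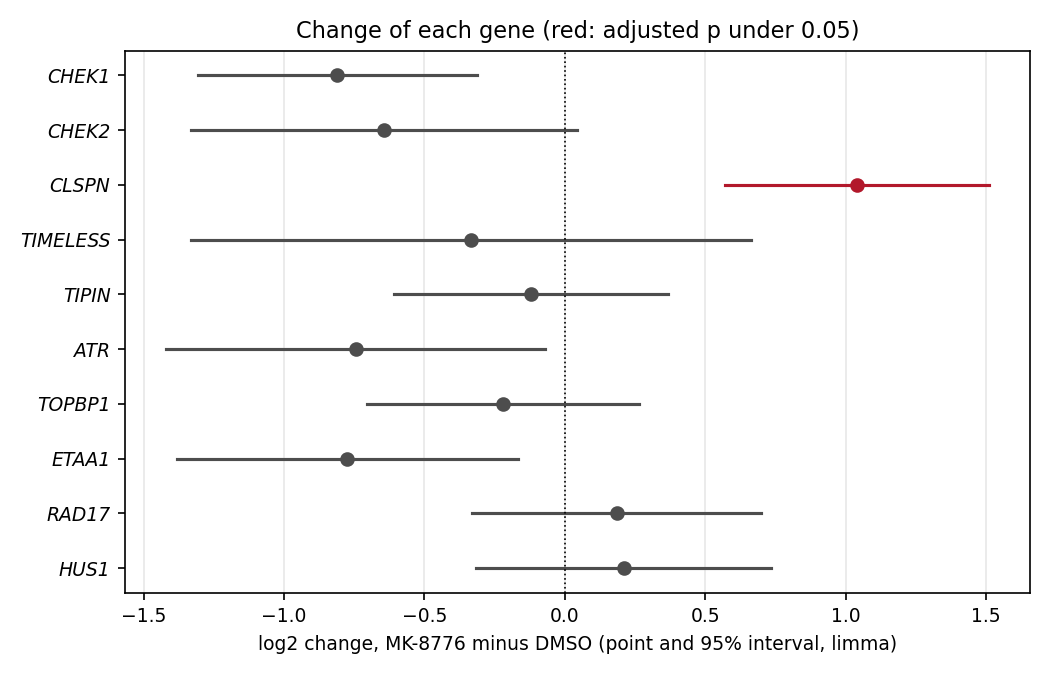
Log2 change of each gene, MK-8776 minus DMSO, as a point with its 95% interval from limma, red where the adjusted p is under 0.05. The interval of CLSPN (0.57 to 1.51) lies above 0, those of CHEK1, ATR and ETAA1 lie below 0 without passing the adjusted test, and the other 6 include 0.

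Over the 10 genes, 1 rose, 0 fell and 9 did not pass (limma), with 4 at an unadjusted p under 0.05 against 18.8% of all genes. Of the 10, 7 were lower in MK-8776, against 49.2% of all genes, and the median change was -0.28, against 0.005 over all genes. The groups did not overlap in 6 of 10, against 48.2% of all genes, and 5 of these were lower in MK-8776, against 24.2%. A count of 6 in 10 is close to the share of all genes. The median depended on the treated arrays, at -0.043 with MK-8776 replicate 1 dropped and -0.65 with replicate 2 dropped.

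The treated arrays differed from each other in part of the genes. For CHEK2, ATR, ETAA1 and TIMELESS the SD within MK-8776 was 0.49 to 1.08, against 0.085 to 0.25 within DMSO. The other 6 had SDs of 0.085 to 0.29 in MK-8776, and the median over all genes was 0.17. The MK-8776 means of these 4 genes, 5.65 to 6.69, lay near the median of all values on the arrays (5.77). MK-8776 replicate 1 was below replicate 2 in 9 of the 10 genes, HUS1 being the exception, against 48.7% of all genes, and DMSO replicate 1 was below DMSO replicate 2 in 6 of 10, against 48.8%. The same order of arrays was seen in 14 of 15 S phase genes in MK-8776 and in 14 of 15 in DMSO, with median gaps of 0.40 and 0.32. In 12 mitotic genes it was seen in 11 in MK-8776 and in 2 in DMSO. The part of such array differences in the changes of the 10 genes was not tested.

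**Figure D3:**
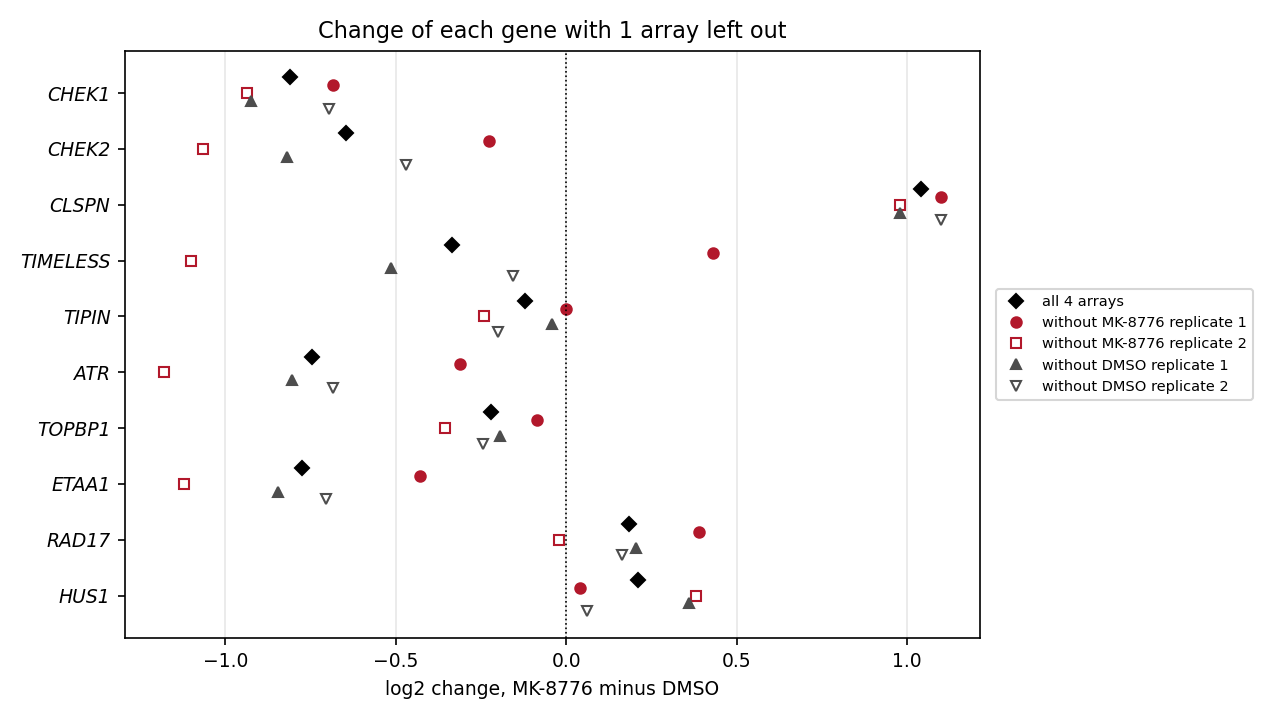
Log2 change of each gene from all 4 arrays (black diamonds) and with 1 array left out, MK-8776 arrays in red and DMSO arrays in grey. CLSPN stays between 0.98 and 1.10 and CHEK1 between -0.94 and -0.69, whereas CHEK2, ATR, ETAA1 and TIMELESS shift most when a treated array is left out, TIMELESS between -1.10 and 0.43.

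The partners of these proteins were examined in 6 lists with 53 genes, of which 47 were measured. Of these, 0 rose, 4 fell and 43 did not pass (limma), against 2.02% of all genes that fell. An unadjusted p under 0.05 (limma) was found for 18 of the 47, against 18.8% of all genes. The median change was -0.35, against 0.005 over all genes. With any 1 array dropped, the calls of these genes were lost, as were most calls over all genes. In the clamp and loader list RHNO1, whose protein links the clamp to TOPBP1, fell by 1.10 (adjusted p = 0.0303, limma), with 8.68 and 8.68 in MK-8776 against 9.89 and 9.66 in DMSO. It was 1 of 7 measured, 6 of which were lower, against 49.2% of all genes, and the list's median was -0.58. MRE11, the nuclease gene of the MRN complex that activates ATM, measured 10.97 and 10.94 in MK-8776 against 11.86 and 11.94 in DMSO. It fell by 0.95 (adjusted p = 0.0433, limma) as 1 of 8 measured genes of the ATM branch, whose median was -0.21. The call of MRE11 was lost with all features tested (0.0525) and with arrays centred on their medians (0.0509). With the replicate number as a block, RHNO1 and MRE11 did not pass (adjusted p of 0.067 and 0.0789, limma).

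PLK1, the mitotic kinase that marks claspin for destruction during recovery from the checkpoint, had the largest change of the 4. It measured 11.22 and 11.27 in MK-8776 against 13.29 and 13.05 in DMSO, and fell by 1.93 (adjusted p = 0.00477, limma). The other 12 measured genes of CHK1 and claspin turnover did not pass, and the list's median was -0.015. CDC25C, a CHK1 target that promotes mitosis, measured 6.19 and 6.24 in MK-8776 against 7.16 and 7.26 in DMSO. It fell by 0.995 (adjusted p = 0.0372, limma) as 1 of 7 measured targets, with a list median of -0.48. With the replicate number as a block CDC25C did not pass (adjusted p = 0.0723, limma).

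The ATR partner and RPA list, with 3 of 4 genes measured, and the fork and origin list, with 9 of 10, gave 0 calls (limma, 1 and 3 at an unadjusted p under 0.05). RPA1, the largest subunit of the single-strand binding complex, measured 10.84 and 10.64 in MK-8776 and 11.41 and 11.51 in DMSO, a change of -0.72 (adjusted p = 0.107, limma, and 0.0385 with a variance trend). RPA2 was at 8.81 and 8.88 in MK-8776 and at 8.75 and 8.94 in DMSO, with equal means. MCM10, a replication initiation gene, measured 4.43 and 4.79 in MK-8776 against 5.59 and 5.42 in DMSO, a change of -0.90 (adjusted p = 0.0714, limma). TICRR, whose protein works with TOPBP1 at origins, had a change of -0.82 (adjusted p = 0.119, limma, and -1.10 to -0.53 with 1 array dropped).

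Several of the 10 genes are known to vary through the cell cycle, so 2 cell cycle lists were set beside them. Of 12 mitotic genes, 11 fell, 0 rose and 1 did not pass (limma), with a median of -1.50. Of all genes, 2.02% fell and 1.66% rose. As for the partner genes, these calls were lost with 3 arrays. CCNB2, a cyclin B gene, changed by -2.00 and the kinetochore gene CENPF by -1.90 (adjusted p of 0.012 and 0.0068, limma). The topoisomerase gene TOP2A changed by -1.69 and the mitotic kinase gene CDK1 by -1.59 (adjusted p of 0.015 and 0.036, limma). With the replicate number as a block CDK1 did not pass (adjusted p = 0.0968, limma). Of 15 S phase genes, 0 passed (limma), with 6 at an unadjusted p under 0.05 against 18.8% of all genes. In this list 12 were lower, against 49.2% of all genes, and the median was -0.50, against 0.005 over all genes. The widest of these were CCNE2, a cyclin E gene, at 1.27, with 7.13 and 8.11 in MK-8776 against 6.05 and 6.66 in DMSO, and UHRF1, a gene of DNA methylation upkeep, at -1.11 (adjusted p of 0.0934 and 0.198, limma). With 1 array dropped CCNE2 ranged from 0.775 to 1.755 and UHRF1 from -1.755 to -0.465. Whether fewer cells were dividing was not measured, and any part of this in the changes of CHEK1 and the others was not tested. In these bulk samples fewer cells in a phase and less RNA per cell cannot be told apart.

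**Figure D4:**
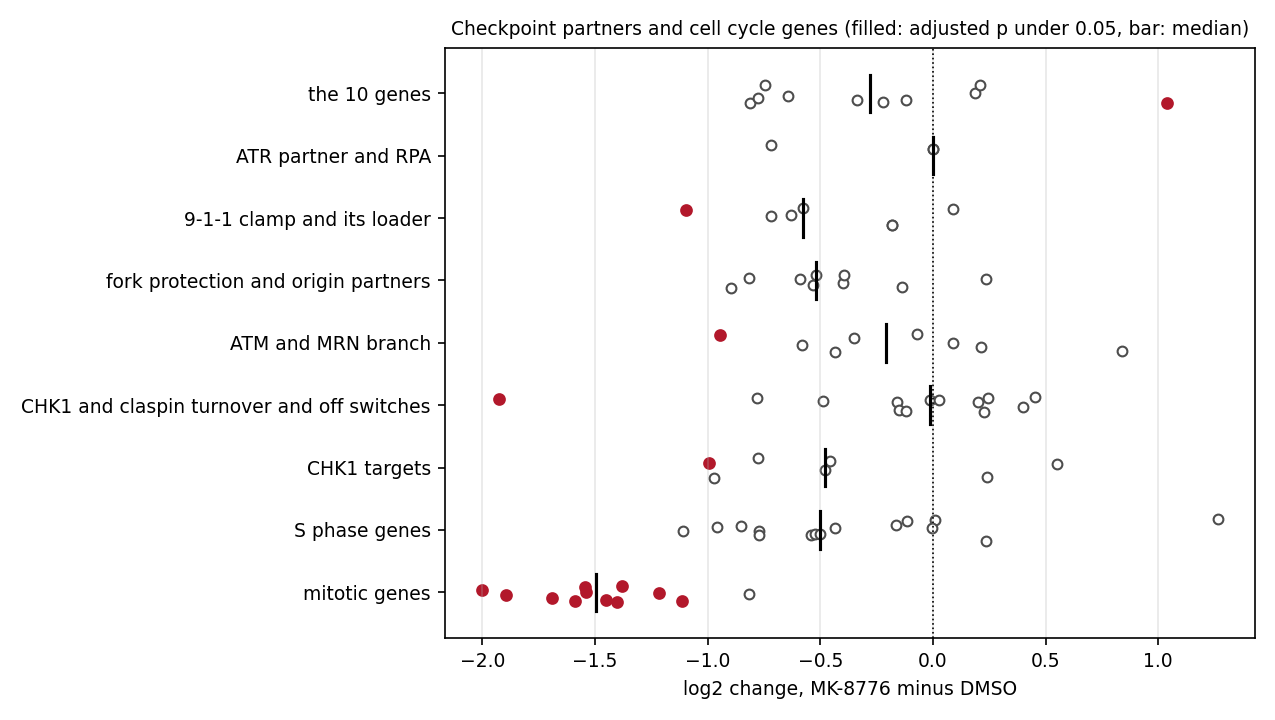
Log2 change, MK-8776 minus DMSO, of every measured gene in the 10 examined and in 8 related lists, filled red where the adjusted p is under 0.05, with the list median as a bar. CLSPN is the only filled point above 0, and the mitotic genes lie lowest, with a median of -1.50.

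The 3 genes whose deviations from their own mean over the 4 arrays lay nearest to those of CHEK1, among 9179 genes above the median level, were ZBTB44, KARS1 and ZNF519, at Euclidean distances of 0.035, 0.036 and 0.055 on the log2 scale. Nearest to CLSPN were PHLDA2, ACAA2 and ACTR10, at 0.091, 0.11 and 0.12. These distances rest on 4 arrays and describe only how alike the profiles were.

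Across the series the arrays of a group correlated at 0.993 over genes, in MK-8776 and in DMSO, against 0.981 to 0.989 between groups. Of the promyelocyte and myeloid markers MPO, the myeloperoxidase gene, was near the top of the range, at 15.09 in MK-8776 and 16.18 in DMSO. The granule and maturation genes PRTN3, AZU1, CTSG and CEBPE lay between 5.32 and 6.33 in MK-8776 and between 6.19 and 8.53 in DMSO. SPI1 was at 11.71 in MK-8776 and 11.435 in DMSO, and CEBPA at 7.865 and 8.125. Of 7 measured, the granule protease genes PRTN3 and CTSG fell, with changes of -2.01 and -2.20 (adjusted p of 0.0193 and 0.00516, limma). The sum of the 7 log2 values, in which each gene counts alike, was 56.26 to 59.77 in MK-8776 and 62.76 to 66.94 in DMSO. Of 12 measured markers of T and NK, B, erythroid and megakaryocyte cells, NKG7 rose, and CD3E and ITGA2B fell. Of all genes, 1.66% rose and 2.02% fell. Some of these markers were not dim. The T and NK marker NKG7 was at 12.33 in MK-8776 and 11.105 in DMSO. The B cell markers CD79B and CD79A were at 9.92 and 9.61 in MK-8776 and at 10.49 and 9.69 in DMSO. The other measured markers of these lists lay lower, from GP9 (3.11 in MK-8776 and 3.26 in DMSO) to ITGA2B (7.64 and 9.19). Among them, the B cell marker MS4A1 was at 3.45 and 3.355. The T and NK markers CD2 and CD3D were at 5.33 and 5.62 in MK-8776 and at 5.335 and 6.125 in DMSO.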

How the data were processed

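Log2 expression values, as deposited by the authors in 1 table of 21448 array features and 4 arrays, were used unchanged. The values come from RMA and refer to genome build hg38, per the submitters' processing notes, with version and settings not given in the sources used here. The log2 scale was taken from the values (2.16 to 18.54). RMA makes arrays alike in distribution, so changes are relative to other genes. A single gene symbol was given for 17709 features, all matched by gene number to RefSeq (GRCh38.p14), and the feature with the highest mean was kept for each of 17687 genes. Groups come from the sample titles. MK-8776 was compared with DMSO over all genes, unfiltered, by lmFit and eBayes of limma 3.58.1 (two-sided, R 4.3.3), with Benjamini-Hochberg adjustment and a threshold of 0.05. It had 2 residual and 6.30 prior degrees of freedom. Its code was run on simulated data, with independent noise drawn from the fitted variance prior. Such data hold no shared array differences, so they cannot show how well the fit suits these arrays. The number of arrays limits the precision.

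The 10 genes and the lists were chosen with earlier results of these data known. All 10 are named, as are, per list, up to 4 genes past the threshold or, where none passed, the 2 with the largest change, and the 3 nearest profiles to CHEK1 and CLSPN. ACRV1 and the marker genes named were picked with their values in view. Alternatives comprised leaving out each array, a replicate block, all features, quantile normalization, median centring, restriction to genes above the median level, and a variance trend, plain or robust. List genes without a value were not analysed here.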

Additional observations from a re-analysis of the deposited data

How the results depend on the processing

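CHEK1, at -0.81 throughout, passed the threshold among genes above the median level (adjusted p = 0.0492, limma), with a variance trend (0.0333) and with a robust trend (0.0354). Of the 10 genes, 2 then passed in each of these fits, and of the measured partner genes 8 passed in each, against 4. These 8 were falls with either trend, and 1 rise and 7 falls among genes above the median level. All genes past the threshold numbered 652 of 17687, against 1185 with a trend and 1162 with a robust trend. Among the genes above the median level, which are fewer, 942 passed. Calls were thus more frequent over all genes in these fits, and not in these lists alone. With the replicate number as a block CLSPN was at 1.04 with adjusted p = 0.068 (limma), and 0 of the 10 genes passed. In that fit 1 partner gene, 6 cell cycle genes and 309 genes in all passed, and the calls of RHNO1, MRE11, CDC25C and CDK1 were lost (0.067, 0.0789, 0.0723 and 0.0968). The labels tie the numbers to no shared culture or day, and same-numbered arrays deviated from their group means with a correlation of 0.139 over genes. Replicate 2 minus replicate 1, in MK-8776 and DMSO, was 0.25 and 0.23 for CHEK1, 0.12 and 0.12 for CLSPN. It had the same sign in both groups for CHEK2, ATR, HUS1, ETAA1 and TIMELESS too, and opposite signs for TOPBP1, RAD17 and TIPIN. Whether the numbers pair the arrays is thus not known. RPA1 passed with a trend (0.0385) and a robust trend (0.0419). Quantile normalization, median centring and testing all features left every one of the 10 genes on its side of the threshold and in its direction.

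With 1 array left out, 1 group has a lone array, assumed to vary like the others. The calls among the 10 genes, the partner genes and the cell cycle genes were then lost, as were most calls over all genes. CLSPN then ranged from 0.98 to 1.10, RAD17 from -0.02 to 0.39, TIMELESS from -1.10 to 0.43, TIPIN from -0.24 to 0.00, and the median of the 10 from -0.65 to -0.043. RAD17 turned negative without MK-8776 replicate 2, and TIMELESS turned positive and TIPIN came to 0 without MK-8776 replicate 1. The loss of calls goes with fewer arrays in the fit. Each of the 10 genes has 1 feature, so no other feature could be tried.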
